A study of Mus musculus with 12 samples.

Results

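Histone genes were followed in mouse kidney before and 4 h after warm ischemia. A probe set, the group of oligonucleotides that reads 1 gene on the array, was taken as a member if its single annotated gene had a histone symbol (H1f, H2ac, H2bc, H2az, H3c, H3f or H4c, the older Hist1h, Hist2h, Hist3h and Hist4h series, or H2afx, H2afy and H2afz), as the current name or as the older name of the same gene. This gave 39 probe sets for 37 genes among 34472 probe sets, of which 23521 had 1 symbol, for 22180 genes. H2ac21 and H4f16 had 2 probe sets each. By class, 27 probe sets belonged to replication-dependent genes (4 of H1, 7 of H2A, 7 of H2B and 9 of H4), 4 to replacement histones (H1f10, H2az1, H2az2 and Macroh2a1), 1 to H2ax, 5 to germ-cell histones and 2 to pseudogenes. No H3 probe set carried a single symbol, so H3 appears only among the 45 histone probe sets with several symbols, which are described apart.

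The 12 arrays came from female mice aged 8 to 12 weeks, in 4 groups of 3. WT mice carried ERT2cre, a tamoxifen-inducible Cre recombinase, and HDAC2-/- mice carried it together with HDAC2fl/fl, floxed alleles of the histone deacetylase HDAC2. All mice, controls included, had tamoxifen at 100 mg/kg daily for 5 days and then 7 days of recovery. The Cre was driven by the ubiquitin C promoter, so deletion was not limited to renal tubules. Ischemic WT and ischemic HDAC2-/- kidneys were taken 4 h after the left renal pedicle had been clamped for 28 min, and in these mice the right kidney was removed during the operation. No sham operation is described, so ischemia and surgery cannot be told apart. The labels name the tissue renal cortex and the methods name it whole kidney.

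Core histones H2A, H2B, H3 and H4 form the octamer around which DNA is wrapped, and linker histone H1 sits where DNA enters and leaves it. Replication-dependent genes are clustered, are mostly transcribed in S phase and give mRNAs that end in a conserved stem-loop in place of a poly(A) tail. Replacement variants are made throughout the cell cycle from polyadenylated mRNAs, and they matter most in tissues such as adult kidney, where few cells divide. Some replication-dependent genes, H1f2 and H2bc21 among them, are also known to give polyadenylated transcripts in differentiated cells. HDAC2 removes acetyl groups from histone tails and from other proteins.

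In the mouse, 23 of the 37 genes lay on chromosome 13 and 6 on chromosome 3. The 150 bases before the start of transcription are shown for 6 genes (RefSeq, GRCm38.p6, 5′ to 3′ on the gene's own strand), because 5 of them were lower after ischemia in WT kidneys and H4c9 had the smallest p between the ischemic groups. Capitals mark exact matches, on either strand, to 3 promoter motifs, namely the TATA box (searched as TATAAA), the CCAAT box (searched by the letters in its name) and the octamer bound by Oct factors (searched as ATTTGCAT). The windows are chr13:22035671-22035820 (plus strand) for H2bc12, chr3:96220881-96221030 (minus) for H2ac20, chr13:23533725-23533874 (plus) for H2ac10, chr13:22041363-22041512 (minus) for H4c9, chr6:87981483-87981632 (minus) for H1f10 and chr3:137864337-137864486 (plus) for H2az1.
H2bc12: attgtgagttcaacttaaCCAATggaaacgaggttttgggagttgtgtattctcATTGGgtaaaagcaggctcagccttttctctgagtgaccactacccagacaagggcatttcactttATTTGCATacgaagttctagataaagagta
H2ac20: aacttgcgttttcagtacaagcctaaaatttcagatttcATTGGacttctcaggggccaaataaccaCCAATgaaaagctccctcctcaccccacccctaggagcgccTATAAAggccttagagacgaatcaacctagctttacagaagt
H2ac10: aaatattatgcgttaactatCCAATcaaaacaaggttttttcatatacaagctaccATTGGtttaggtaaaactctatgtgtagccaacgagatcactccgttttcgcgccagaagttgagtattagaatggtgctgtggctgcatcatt
H4c9: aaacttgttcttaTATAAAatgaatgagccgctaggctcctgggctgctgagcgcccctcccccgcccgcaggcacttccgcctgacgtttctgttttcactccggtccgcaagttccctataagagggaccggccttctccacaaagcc
H1f10: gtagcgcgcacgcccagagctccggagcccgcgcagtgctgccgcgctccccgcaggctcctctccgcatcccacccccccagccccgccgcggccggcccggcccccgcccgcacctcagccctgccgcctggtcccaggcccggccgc
H2az1: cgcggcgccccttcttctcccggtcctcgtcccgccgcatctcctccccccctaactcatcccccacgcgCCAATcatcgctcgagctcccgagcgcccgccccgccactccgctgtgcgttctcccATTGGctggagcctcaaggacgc
The H2bc12 window lies within the 177 bases that separate H2bc12 from its neighbor H2ac12, and the H2ac20 window within the 191 bases that separate H2ac20 from H2bc21. Of the 37 genes, 32 had an entry in the promoter table. A CCAAT match was found upstream of all 4 H1, all 6 H2A and all 6 H2B replication-dependent genes with an entry, but of 1 of 7 H4 genes, against 24.5% of all 32851 promoters of the same length. An octamer match was found for 4 of 6 H2B genes and for 1 of 6 H2A genes, against 0.998% of all promoters. TATA matches were found for 9 of 23 replication-dependent and 0 of 4 replacement genes, against 7.57% of all promoters. Matches were counted anywhere in the window, and their distance from the start was not considered. In H4c9 the marked TATAAA lies near the end of the window that is farthest from the start. The H1f10 window held none of the 3 motifs. No matches overlapped in these windows.

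The deposited values are log2 signals after robust multiarray average normalization, and differences are given on that scale. Array medians lay between 5.62 and 5.76, and arrays of 1 group correlated at 0.98 or more over all probe sets. The probe set of Hdac2 gave 7.92 ± 0.08 (SD, n = 3) in WT and 7.99 ± 0.41 in kidneys labelled HDAC2-/-, and 8.01 ± 0.14 and 8.13 ± 0.19 in the ischemic groups, so it did not separate the genotypes. Where its probes lie relative to the floxed exons is not given in the sources used here, so this value does not check the labels and the groups are named as labelled. The paper reports loss of the targeted protein in contralateral kidneys from its ischemia experiments, by Western blot and immunoperoxidase stain. Proximal tubule markers averaged 12.4 to 12.8 on all arrays. Group means were compared with limma, p-values were adjusted by Benjamini-Hochberg over all 34472 probe sets, and a member counted as called when its adjusted p was under 0.05. The median SE of a difference between 2 groups was 0.17. With 3 arrays a group, their number limits the precision. In bulk tissue, fewer cells of a type and less RNA per cell cannot be told apart.

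To ask how ischemia affects histone transcripts in the presence of HDAC2, ischemic WT kidneys were compared with WT kidneys. In this comparison 9 of 39 members fell and none rose, while over the whole array 7.17% of probe sets were called lower and 6.55% higher. At an unadjusted p under 0.05, 18 members were lower and 0 higher, against 13.6% and 11.5% of all probe sets. The median difference of the members was -0.42, compared with -0.02 for all probe sets, of which 13.7% were called in either direction. The 9 were H2ac10, H2ac15, H2ac20 and H2aw, which encode H2A, H2bc12 and H2bc21, which encode H2B, and the replacement histones H1f10, H2az1 and H2az2.

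Among replication-dependent genes, H2A and H2B had the largest medians. All 7 H2A probe sets were lower in each ischemic WT array than in any WT array, 4 of them were called, and their median difference was -0.79. Over all members 17 were separated in this way and 0 upwards, while 15.3% of all probe sets were separated downwards and 13% upwards. Of the 7 H2B probe sets 2 were called, and the median difference was -0.70.

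H2bc12 had the largest difference of any member. Its signal was 7.14, 7.06 and 7.86 in WT and 5.63, 5.54 and 6.23 in ischemic WT kidneys, so that every ischemic array lay below every WT array. The difference was -1.55 (SE 0.27, 95% CI -2.12 to -0.98, limma adjusted p = 0.00182), a 2.94-fold lower signal. H2ac12, its neighbor across the shared upstream region, gave a dim signal with a difference of -0.44 (limma adjusted p = 0.0777), and it was called lower with array weights (0.0311), with the covariate for small nuclear and nucleolar RNAs (0.0492) and without WT replicate 3 (0.0128).

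H2bc21, which is known for polyadenylated transcripts in non-dividing cells, read 7.19, 7.15 and 7.22 in WT and 5.98, 5.94 and 6.47 in ischemic WT kidneys. The WT arrays were tightly grouped and all 3 ischemic arrays were lower. The difference was -1.06 (SE 0.15, limma adjusted p = 0.000486). H2ac20, which lies next to it on chromosome 3, read 6.08, 5.82 and 5.84 in WT and 4.77, 4.99 and 5.62 in ischemic WT kidneys, a difference of -0.79 (SE 0.19, limma adjusted p = 0.0139). The groups did not overlap, although the highest ischemic array came close to the WT range.

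H2ac10, the brightest of the 7 H2A probe sets, read 9.91, 9.63 and 9.79 in WT and 9.21, 8.49 and 9.11 in ischemic WT kidneys. Its difference was -0.84 (SE 0.21, limma adjusted p = 0.0156). For H2aw, the H2A gene of the small chromosome 11 cluster, the values were 5.98, 5.67 and 5.38 against 4.87, 5.14 and 4.93, with a difference of -0.70 (SE 0.16, limma adjusted p = 0.00905). In both genes the ischemic arrays lay below all WT arrays. H2ac15 fell by 1.13 (SE 0.31, limma adjusted p = 0.0242), but its mean over all 12 arrays was 3.80, close to the low end of the scale. It read 4.44, 4.04 and 4.21 in WT and 3.59, 2.34 and 3.37 in ischemic WT kidneys. The 2 probe sets of H2ac21 gave -0.93 and -0.31 and neither was called.

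**Figure D1:**
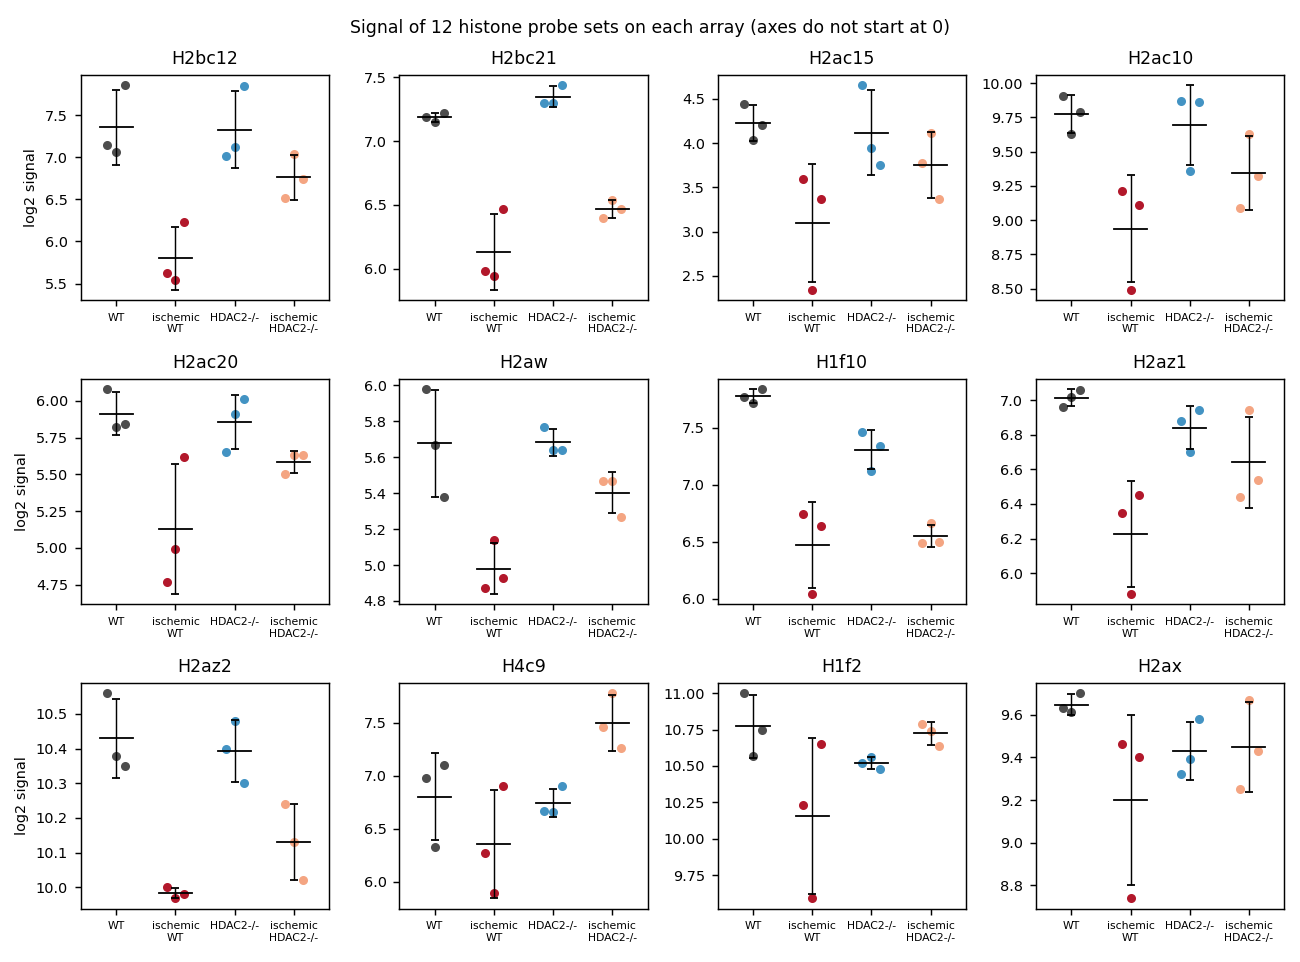
Signal of 12 histone probe sets (log2, vertical axes not starting at 0) on each of the 12 arrays, with group means (horizontal lines) and SD (bars), n = 3. The first 9 panels are the members called in ischemic WT against WT, where no array of ischemic WT overlaps WT, and H4c9 is highest in the ischemic group labelled HDAC2-/-.

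No H1 or H4 gene was called in WT kidneys in the fit over all probe sets and arrays. H1f2, the brightest H1 probe set and a gene with known polyadenylated transcripts, read 11, 10.57 and 10.75 in WT and 10.23, 9.59 and 10.65 in ischemic WT kidneys. The groups overlapped by 1 array, and the difference was -0.62 (SE 0.21, limma adjusted p = 0.0702). H1f2 was called lower when only probe sets with a mean of at least 5 were fitted (limma adjusted p = 0.0484) and without ischemic WT replicate 3 (0.00984). H1f5 gave -0.24 (SE 0.24, limma adjusted p = 0.615). Of the 9 H4 probe sets 7 had a lower mean after ischemia, and their median difference was -0.34. Most H4 genes encode the same protein. H4c12, the brightest, read 12.89, 12.95 and 13.19 against 12.81, 12.03 and 12.94, a difference of -0.42 (SE 0.22, limma adjusted p = 0.281). The brighter of the H4f16 probe sets gave -0.92 with a wide error (SE 0.40, limma adjusted p = 0.165), and it was called lower with a covariate for the small nuclear and nucleolar RNA level (0.00068). H2bc3, the brightest H2B probe set, gave -0.69 (SE 0.24, limma adjusted p = 0.0758). H2bc3 was called lower with the same covariate (0.0096) and without ischemic WT replicate 3 (0.0469) or HDAC2-/- replicate 3 (0.0341). H2bc22 gave 0.16 (limma adjusted p = 0.559).

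Replacement histones were lower as well, with 3 of 4 called and a median difference of -0.62. H1f10, a linker histone whose mRNA is polyadenylated, had the smallest p of all members. It read 7.77, 7.72 and 7.84 in WT and 6.74, 6.04 and 6.64 in ischemic WT kidneys, so that the groups were far apart. The difference was -1.30 (SE 0.17, limma adjusted p = 0.000338), or 2.47-fold. H2az1 encodes H2A.Z, a variant found at promoters. It read 6.96, 7.02 and 7.06 against 6.35, 5.88 and 6.45, with a difference of -0.79 (SE 0.17, limma adjusted p = 0.00756). H2az2, the second H2A.Z gene, read 10.56, 10.38 and 10.35 against 10, 9.97 and 9.98 and gave -0.45 (SE 0.12, limma adjusted p = 0.0269). The fall was small, but the ischemic arrays were nearly identical. Macroh2a1, which encodes a variant associated with repressed chromatin, gave -0.24 (SE 0.16, limma adjusted p = 0.425).

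H2ax, whose product is phosphorylated beside DNA breaks and which gives both kinds of transcript, read 9.63, 9.61 and 9.70 in WT and 9.46, 8.74 and 9.40 in ischemic WT kidneys. All ischemic arrays were lower, but the difference of -0.45 (SE 0.18) did not pass the threshold (limma adjusted p = 0.136). None of the 5 germ-cell histones was called, and their median difference was -0.07. The 2 pseudogene probe sets, H2af-ps2 and H2bu1-ps, gave -0.24 and -0.31 and were not called either. Of the 39 members 18 had a mean under 5, and among these 1 was called, H2ac15. Among the 21 brighter members 8 were called and the median difference was -0.69. The share called among all probe sets of that brightness is not given here, so these counts by brightness have no matched base.

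How far these calls rest on single arrays was examined by leaving out each array in turn. H2bc12, H2bc21, H1f10, H2az1 and H2aw were called in WT kidneys whichever array was left out. The count of called members ranged from 5, without WT replicate 1, to 11. Without ischemic WT replicate 2, the array with the lowest average over replication-dependent histones, 6 members were called and the median of the replication-dependent probe sets was -0.33 in place of -0.45. H2az2 lost its call without ischemic WT replicate 1, 2 or 3 or WT replicate 1 or 2 (limma adjusted p 0.0565 to 0.108). H2ac15 lost it without ischemic WT replicate 2 or any WT array (0.0525 to 0.100), H2ac20 without ischemic WT replicate 1 or 2 or WT replicate 1 (0.0542 to 0.0633), and H2ac10 without ischemic WT replicate 2 (0.0673) or WT replicate 1 (0.0583). H2az2 was also not called when only the groups compared were fitted (0.0639), nor were H2ac10 (0.0633), H2ac15 (0.109) and H2ac20 (0.0525) without empirical Bayes.

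The same comparison was then made between ischemic kidneys labelled HDAC2-/- and kidneys labelled HDAC2-/- without ischemia. Here 2 of 39 members fell and none rose, against 1.97% of all probe sets called lower and 2.94% called higher (4.91% in all). At an unadjusted p under 0.05, 3 members were lower and 1 higher, while 8.72% and 8.19% of all probe sets were. The groups did not overlap for 6 members downwards and 2 upwards, against 10.2% and 9.91% of all probe sets. The median difference was -0.13 over all members, -0.15 over the replication-dependent and -0.23 over the replacement probe sets, with -0.01 for all probe sets. When 1 array was left out, the replication-dependent median ranged from -0.19 to -0.005 and the replacement median from -0.31 to -0.18. The value of -0.005 was reached without HDAC2-/- replicate 3, and without ischemic HDAC2-/- replicate 3 the replication-dependent median was -0.073.

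H2bc21 was 1 of the 2 called members. It read 7.30, 7.30 and 7.44 in kidneys labelled HDAC2-/- and 6.40, 6.54 and 6.47 in the ischemic ones, with no overlap. The difference was -0.88 (SE 0.15, 95% CI -1.19 to -0.56, limma adjusted p = 0.00319). H1f10 was the other. It read 7.46, 7.12 and 7.34 against 6.49, 6.66 and 6.50, a difference of -0.76 (SE 0.17, limma adjusted p = 0.0218). This call was lost without HDAC2-/- replicate 1 (limma adjusted p = 0.109) and without ischemic HDAC2-/- replicate 1 (0.0649) or 3 (0.0888), and in each case 1 member was called. It was also lost without empirical Bayes (0.0693). Both genes had also been called in WT kidneys.

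The other 7 members called in WT kidneys were not called here. Among them, H2bc12 was called lower with a covariate for the small nuclear and nucleolar RNA level (-0.65, limma adjusted p = 0.0318) and H2az2 with array weights (-0.35, limma adjusted p = 0.0271). The brighter probe set of H4f16 was not called in the main fit of either genotype. With that covariate it was called lower both here (-0.68, limma adjusted p = 0.00258) and in WT kidneys (-0.75, 0.00068). H2bc12 read 7.01, 7.12 and 7.85 against 6.51, 7.04 and 6.74, overlapping by 1 array, and gave -0.56 (SE 0.27, limma adjusted p = 0.304). H2ac10 gave -0.35, H2ac15 -0.36, H2ac20 -0.27, H2aw -0.28, H2az1 -0.20 and H2az2 -0.26, each with an adjusted p of 0.298 or more from limma. H2ax gave 0.02 (95% CI -0.37 to 0.41). A miss of the threshold does not show that these genes were steady, since their intervals still reach falls such as -0.53 for H2az2 and -0.80 for H2ac10.

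H4c9 went the other way. It read 6.67, 6.66 and 6.90 in kidneys labelled HDAC2-/- and 7.46, 7.78 and 7.26 in the ischemic ones, where every array was higher. The difference was 0.76 (SE 0.25), which did not pass the threshold in the fit over all 4 groups (limma adjusted p = 0.109). It passed when only these 6 arrays were fitted (limma adjusted p = 0.0421) and with array weights (0.0308), so the call depends on the arrays and weights used. In WT kidneys H4c9 read 6.98, 6.33 and 7.10 and after ischemia 6.27, 5.89 and 6.90, and these groups overlapped.

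**Figure D2:**
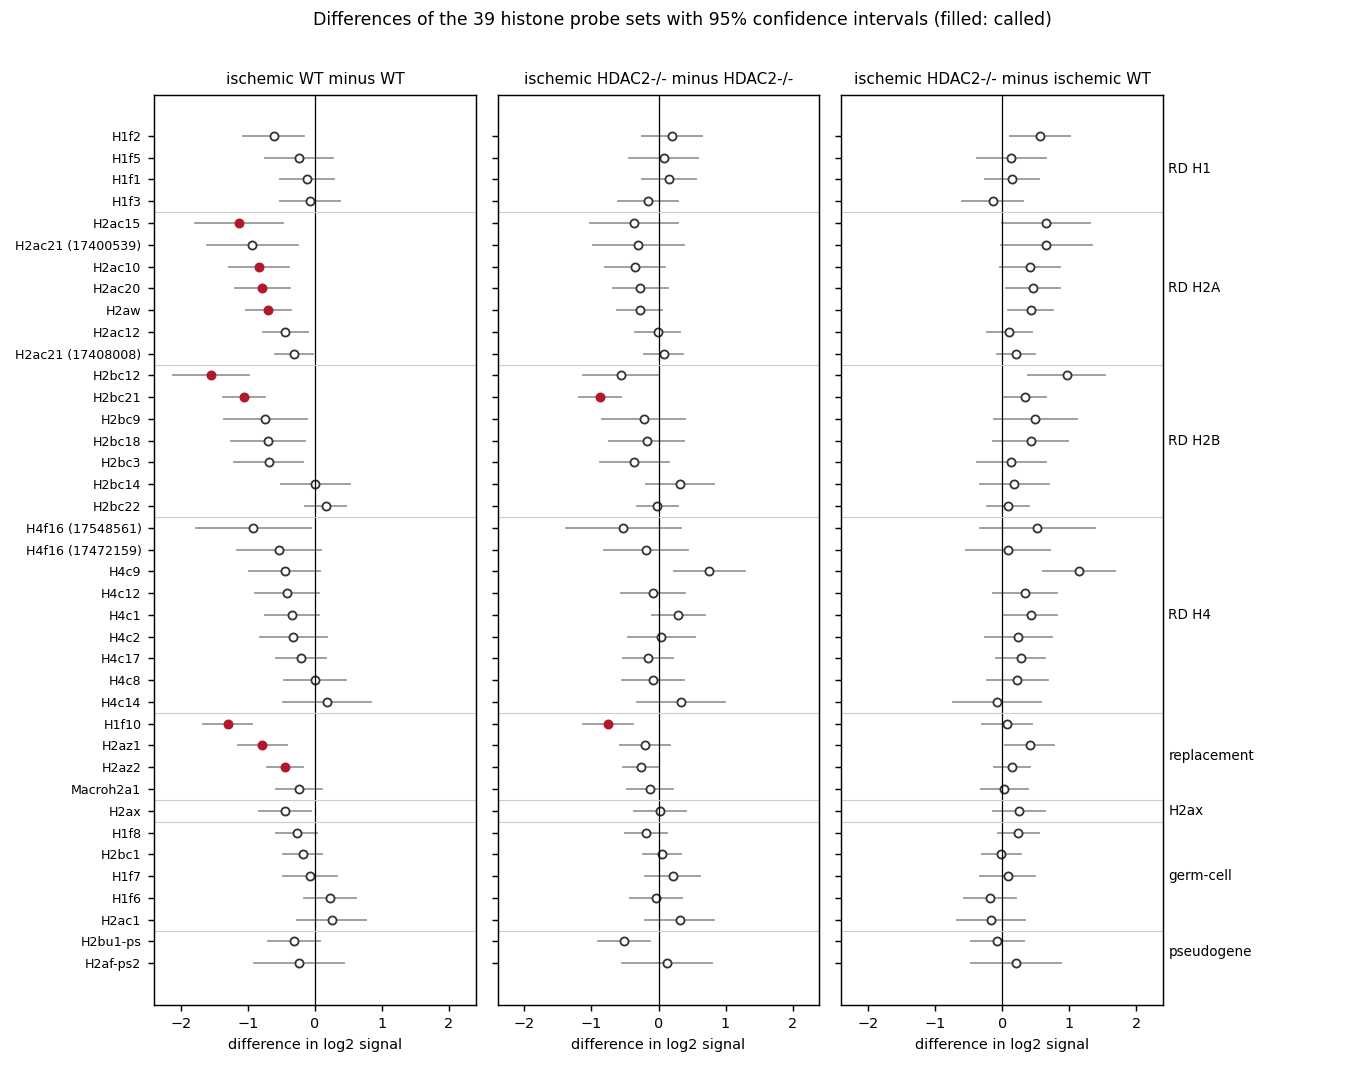
Differences in log2 signal of the 39 histone probe sets (horizontal axes) in 3 comparisons, with 95% confidence intervals from limma; filled points are called at an adjusted p under 0.05, and RD means replication-dependent. In ischemic WT 9 members are called, all lower, in ischemic kidneys labelled HDAC2-/- 2, and between the ischemic groups 0.

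Whether the genotypes differed was tested directly. Between ischemic kidneys labelled HDAC2-/- and ischemic WT kidneys no member was called, and neither was any other probe set (0%). Of the 39 members 33 were higher and 6 lower, with a median of 0.23 (0.34 for the replication-dependent probe sets), and 8 were higher and 0 lower at an unadjusted p under 0.05, compared with 3.78% and 2.81% of all probe sets. The groups did not overlap for 6 members upwards and 0 downwards, against 5.99% and 4.08% of all probe sets. H4c9 had the largest difference, 1.15 (SE 0.25, 95% CI 0.61 to 1.68, limma adjusted p = 0.551), and all 3 arrays labelled HDAC2-/- were above the ischemic WT arrays. H2bc12 differed by 0.96 (SE 0.27, limma adjusted p = 0.713) and H2aw by 0.42 (SE 0.16, limma adjusted p = 0.720), both without overlap. H1f10, which was called after ischemia in both genotypes, read 6.74, 6.04 and 6.64 in ischemic WT kidneys and 6.49, 6.66 and 6.50 in the ischemic ones labelled HDAC2-/-.

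Without ischemia, kidneys labelled HDAC2-/- and WT kidneys gave no called member and no other called probe set (0%). The median difference of the members was -0.10, and 1 of 39 was lower and 0 higher at an unadjusted p under 0.05, against 1.22% and 1.16% of all probe sets. The groups did not overlap for 5 members downwards and 2 upwards, against 3.83% and 3.79%. That member was H1f10, with 7.77, 7.72 and 7.84 in WT and 7.46, 7.12 and 7.34 in kidneys labelled HDAC2-/-, a difference of -0.47 (SE 0.17, limma adjusted p = 0.9999). Next came H2ac12 at -0.32 and H2bc22 at 0.27, both dim.

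The difference between the responses to ischemia, that is, the change in the groups labelled HDAC2-/- minus the change in WT, was the direct test of whether the responses differed. No member and no other probe set was called (0%). The median was 0.35 over the members against 0.01 over all probe sets, 34 of 39 members had a positive value, and 6 were higher and 0 lower at an unadjusted p under 0.05, compared with 2.53% and 1.66% of all probe sets. These comparisons share their arrays with those above and do not count as separate support. The smallest p belonged to H4c9, with 1.21 (SE 0.35, 95% CI 0.45 to 1.96, limma adjusted p = 0.956). H1f2 gave 0.82 (SE 0.30) and H2bc12 0.99 (SE 0.38), with the same limma adjusted p of 0.956. All 9 members called in WT kidneys had a smaller fall in the group labelled HDAC2-/-, and 3 of them had an unadjusted p under 0.05 for the difference. These 9 were picked by their fall in WT, so a smaller fall in the other genotype follows in part from that choice and the count supports nothing. That 9 calls were made in WT and 2 in the group labelled HDAC2-/- is therefore not a tested difference.

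The order of the group means gave the same picture as a description. Ischemic WT had the lowest of the 4 means for 28 of 39 members (71.8%), including 21 of 27 replication-dependent and 4 of 4 replacement probe sets, and for 33.3% of all probe sets. Averaged over the 27 replication-dependent probe sets, the arrays read 5.93, 5.84 and 6.01 in WT, 5.38, 5.18 and 5.70 in ischemic WT, 5.83, 5.76 and 6.02 in the group labelled HDAC2-/- and 5.71, 5.92 and 5.67 in its ischemic group. The highest ischemic WT array lay above the lowest ischemic array of the other genotype and below its others.

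Histone genes share long stretches of sequence, and the 45 probe sets with several symbols cannot be assigned to 1 gene. Of the 37 replication-dependent ones, ischemic WT kidneys gave 8 calls downwards and 1 upwards (median difference -0.34), and the groups labelled HDAC2-/- gave 0 and 1 (median difference -0.04). Over the whole array 7.17% of probe sets were called lower and 6.55% higher in WT, and 1.97% and 2.94% in the groups labelled HDAC2-/-. The 37 include 3 probe sets with values identical to another, so the counts hold repeats, and those named next were chosen after their values were seen. The 12 replication-dependent H3 probe sets gave 1 call, a probe set shared by 8 symbols including H3c15, at -0.91 (SE 0.23, limma adjusted p = 0.0177) in WT and -0.27 (limma adjusted p = 0.648) in the group labelled HDAC2-/-. The probe set that rose was shared by H2bc15 and 3 other symbols and was dim, with a mean of 4.05, and it gave 1.22 (limma adjusted p = 0.00267) in WT. A second probe set with H2bc15 among its 4 symbols was lower by contrast, at -0.74 (limma adjusted p = 0.00622). H2bc4 is also known for polyadenylated transcripts, and the probe set that names it first carried 3 symbols and gave -0.30 (limma adjusted p = 0.172).

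Histone H3.3, the replacement form of H3 that is laid down outside S phase, was read only by probe sets with several symbols, and those that were called rose. Its 7 probe sets, all with several symbols of H3f3a, H3f3b and related copies, gave 3 calls, all higher, in each genotype after ischemia, and 0 lower. Over the whole array 6.55% of probe sets were called higher in WT and 2.94% in the groups labelled HDAC2-/-. The 3 called probe sets carry the same 5 symbols, so they cannot be taken as 3 separate genes. The brightest, with H3f3b first, read 12.00, 11.76 and 11.92 in WT and 12.55, 12.33 and 12.72 in ischemic WT kidneys, a difference of 0.64 (SE 0.14, limma adjusted p = 0.00636). It read 11.71, 11.79 and 11.88 against 12.53, 12.39 and 12.44 in the groups labelled HDAC2-/-, with 0.66 (limma adjusted p = 0.0116). Another with H3f3b gave 0.75 (limma adjusted p = 0.00314) and 0.74 (limma adjusted p = 0.00705). For the 3 called probe sets, all ischemic arrays were above the arrays without ischemia in both genotypes. The other 4 were not called. In WT kidneys the 3 of them in which H3f3a came first gave -0.09, -0.27 and -0.22, the same sign as most members, and the fourth gave 0.16. In the groups labelled HDAC2-/- the same 3 gave -0.06, 0.02 and -0.11. The fourth gave 0.38 there, without overlap (limma adjusted p = 0.2055). This probe set, and the one that gave -0.27 in WT kidneys, carry the same 5 symbols as the called ones. The symbols therefore do not separate the probe sets that rose from the others.

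Genes that make, carry or use histone mRNAs and proteins were read from 3 lists. For histone mRNA transcription and stem-loop processing, 4 of 17 genes were higher and 2 lower in ischemic WT kidneys, where 6.55% of all probe sets were called higher and 7.17% lower. Ncbp1, a subunit of the nuclear cap-binding complex, rose by 0.92 (limma adjusted p = 0.0172), Tut7, a uridylyltransferase that acts on histone mRNA, by 0.87 (0.00448), and Cpsf2, a subunit of the cleavage complex, by 0.80 (0.00434). Mif4gd, an adaptor that binds SLBP, the stem-loop binding protein, gave -0.73 (limma adjusted p = 0.0272), and Lsm10, a component of the U7 particle that directs histone mRNA cleavage, gave -0.68 (0.0112). Among histone chaperones and exchange factors, 5 of 23 were higher and 1 lower, against the same shares. Npm1, a nucleolar chaperone, rose by 0.97 (limma adjusted p = 0.0176), Supt16, a subunit of FACT, by 0.96 (0.00733), and Supt6, an elongation factor that binds histones, by 0.89 (0.0141). Asf1b, an H3-H4 chaperone tied to proliferation, gave -0.65 (0.0398). Ischemic WT replicates 1, 2 and 3 averaged 7.60, 7.94 and 7.55 over the processing list. Over the chaperone list they averaged 8.05, 8.31 and 7.98, so replicate 2 was highest in both. The genes of these lists were not run with single arrays left out.

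Of the 27 genes of DNA replication and S phase, 3 fell and 0 rose in ischemic WT kidneys, and their median difference was -0.11. With 7.17% of all probe sets called lower, 3 of 27 is near the share of the whole array. E2f1, a transcription factor for S phase genes, gave -0.70 (SE 0.15, limma adjusted p = 0.00572), Gins2, a subunit of the replicative helicase, -0.65 (SE 0.16, 0.0154), and Cdk2, the S phase kinase, -0.47 (SE 0.13, 0.0296). In the groups labelled HDAC2-/- no gene of the 3 lists was called. At an unadjusted p under 0.05, 1 higher and 2 lower were found there in the processing list, 3 higher and 1 lower among chaperones and 1 higher and 6 lower among replication genes, while 8.19% of all probe sets were higher and 8.72% lower. Beyond H2az2, 3 further histone genes that the naming rule leaves out were read. H2aj gave -0.39 (limma adjusted p = 0.0607), Cenpa, the centromere variant, -0.45 (0.0617) and Macroh2a2 0.09 (0.824) in WT kidneys.

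**Figure D3:**
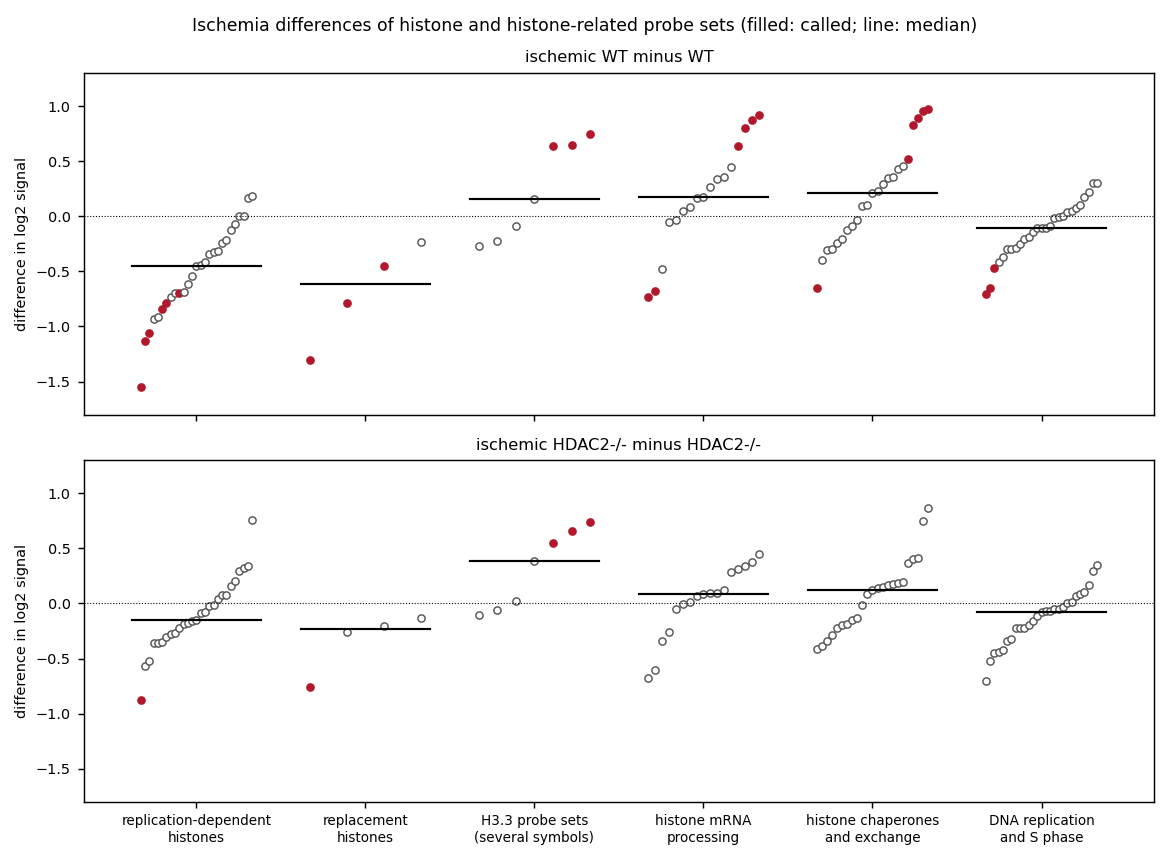
Ischemia differences in log2 signal (vertical axes) for replication-dependent and replacement histones, H3.3 probe sets and 3 lists of histone-related genes, in WT (top) and in the groups labelled HDAC2-/- (bottom); each point is 1 probe set, filled if called, and lines are medians. Replication-dependent and replacement histones have medians of -0.45 and -0.62 in WT and -0.15 and -0.23 below, while called H3.3 probe sets are all higher.

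Other transcripts moved beside the histone genes. Nucleolar and small nuclear RNAs, read by 85 probe sets and mostly without a poly(A) tail, averaged 8.30, 8.68 and 9.05 in WT, 8.76, 8.02 and 8.92 in ischemic WT, 8.61, 8.47 and 9.22 in the group labelled HDAC2-/- and 8.57, 9.23 and 8.81 in its ischemic group. Ischemic WT replicate 2 was lowest and ischemic HDAC2-/- replicate 2 highest of the 12 arrays, which were also the lowest and highest of the ischemic arrays for the replication-dependent histones. Of the 85, 78 were higher in ischemic kidneys labelled HDAC2-/- than in ischemic WT, none at an unadjusted p under 0.05, with a median of 0.27. With their level on each array as a covariate, 14 members were called lower in WT (10.9% of all probe sets were) and 4 in the group labelled HDAC2-/- (4.15%), and the median difference of the replication-dependent probe sets between the ischemic groups was 0.26 in place of 0.34. Without ischemic WT replicate 2 that median was 0.19.

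Neutrophil markers (5 of 5 measured, none of them a histone gene) averaged 4.57 to 5.12 in WT and 5.06 to 6.43 in ischemic WT kidneys, and 4.74 to 4.92 and 5.56 to 6.17 in the groups labelled HDAC2-/-. Of these, 2 were called higher in WT and 3 in the groups labelled HDAC2-/-, while 0 differed between the ischemic groups at an unadjusted p under 0.05. Ischemic WT replicate 2 had the lowest average of the ischemic arrays. The part of these markers in the histone differences was not tested. Of the 2 intercalated cell markers, Slc4a1, an anion exchanger that red cells also carry, was lower in both genotypes (-1.62, limma adjusted p = 0.00154, and -1.31, limma adjusted p = 0.0118), and Atp6v1g3 gave -0.08 and -0.47 without a call. Among 3 macrophage markers Cd68 was higher in both (1.21 and 1.33). Adgre1 and Csf1r went the other way without a call, at -0.28 and -0.34 in WT and -0.28 and -0.29 in the groups labelled HDAC2-/-, smaller fall first. In WT kidneys alone, Pvalb of 2 distal convoluted tubule markers (-0.96) and Cd79a of 2 B cell markers (-0.79) were called lower and Pecam1 of 3 endothelial markers (0.46) higher, while no probe set was called in the difference of the responses. In WT the other distal convoluted tubule and B cell markers gave 0.04 and 0.12, and the other endothelial markers -0.04 and -0.11. The part of all these markers in the histone differences was not tested.

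**Figure D4:**
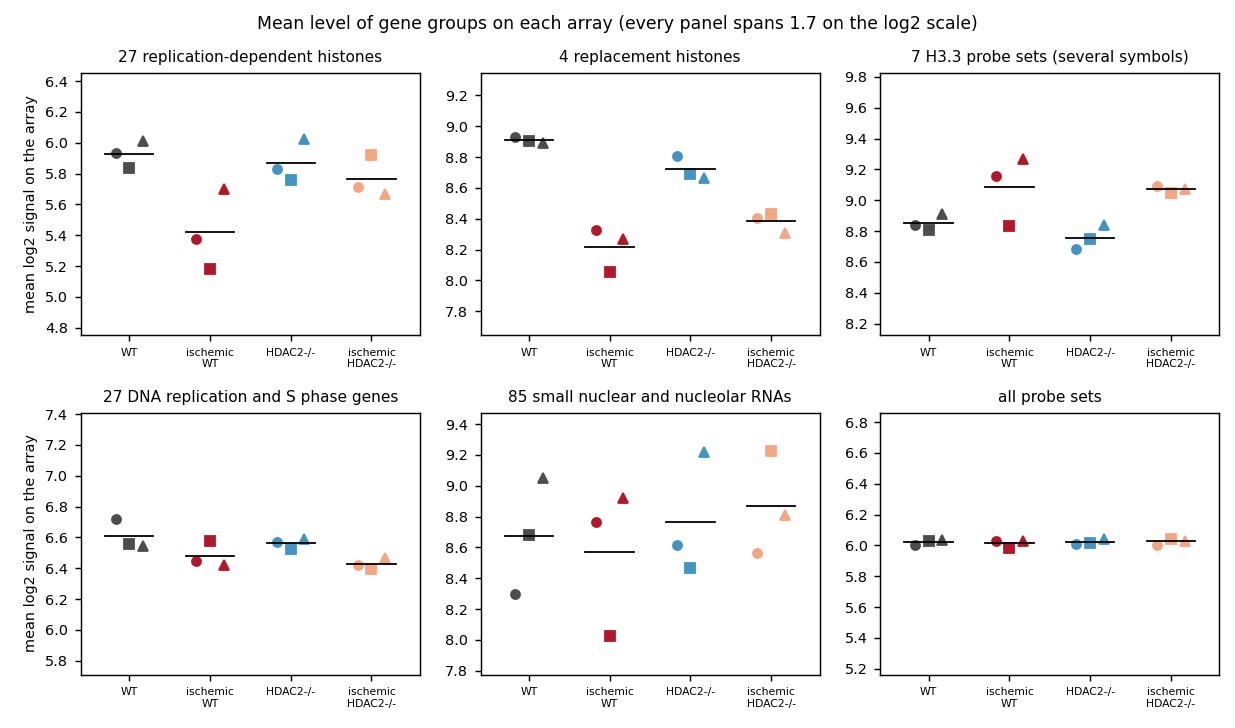
Mean log2 signal of 6 gene groups on each array (vertical axes, each spanning the same range), with circles, squares and triangles for replicates 1, 2 and 3 and lines for group means. Replication-dependent histones have their lowest group mean in ischemic WT. Its arrays read 5.18 to 5.70 and overlap those of the ischemic group labelled HDAC2-/- at 5.67 to 5.92. The small nuclear and nucleolar RNAs range from 8.02 to 9.23, and the means of all probe sets lie between 5.98 and 6.04.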

How the data were processed

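Total RNA from 12 kidney samples, 1 array per sample, was hybridized to Mouse Gene 2.0 ST GeneChip arrays after whole-transcript labelling. This labelling does not select for poly(A) tails. The paper calls the replicates within a condition independent. Whether any mouse gave samples to more than 1 group is not given in the sources used here. The authors deposited log2 values made by robust multiarray average normalization in Transcriptome Analysis Console 4.0; background and library file settings are not given in the sources used here. These values (1.58 to 14.51) were used as deposited. Genes were named from the platform annotation, updated through RefSeq (GRCm38.p6), so older names such as H2afx were followed to the current ones. H2az2 met the rule through its H2az symbol although it had also been listed among histone genes outside the rule, and it is counted once, as a replacement histone. The replacement histone H1f0 and the 3 listed erythroid markers had no probe set with a single symbol in the annotation, so they were not read.

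Differences were tested with limma 3.58.1 in R 4.3.3 (1 mean per group, empirical Bayes, 8 residual and 5.94 prior degrees of freedom), with Benjamini-Hochberg adjustment over 34472 probe sets. The members and lists were chosen with earlier results of these data known. Members are described by counts and medians, without a test over the list. The script was tested on simulated data. Named were all replacement histones and H2ax, members called in either ischemia comparison (or, per type, those with the smallest p) and the brightest per type, the 3 smallest p in each genotype comparison and the difference of responses, and up to 3 rises and 3 falls per list. Alternatives changed scaling, filters, the probe sets or arrays fitted, empirical Bayes settings, weights, the replicate block, a covariate and the threshold, and left out each array. Replicate numbers were checked as a pairing. Deviations of same-numbered arrays correlated between -0.37 and 0.44 (median 0.05), and those of differently numbered arrays between -0.40 and 0.34 (median -0.02). These ranges overlap and do not settle whether the arrays were paired. In the main fit the numbers were not treated as pairs. Promoter motifs were matched exactly in Python 3.11.15.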

Additional observations from a re-analysis of the deposited data

How the results depend on the processing

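Named members were run under alternatives in the 2 ischemia comparisons only, not in the genotype comparisons or the difference of the responses. Of these 828 values, 777 kept their direction and their side of the threshold, 22 lost a call, 15 gained one and 14 changed sign. In WT kidneys the count of members called lower was 9. It became 14 with the covariate for small nuclear and nucleolar RNAs, 4 under an unadjusted p under 0.05 with at least 2-fold, and 5 to 11 when 1 array was left out. In the groups labelled HDAC2-/- the count was 2. It became 1 without empirical Bayes, 4 with array weights, 4 with the covariate, 0 under the 2-fold rule and 1 to 2 when 1 array was left out, and 1 member was called higher, H4c9, with only the groups compared or with array weights. With array weights 9.89% of all probe sets were called lower in the groups labelled HDAC2-/- and 9.45% in WT, so 4 of 39 is near the share of the whole array. Under the 2-fold rule 1 member was higher between the ischemic groups and 1 in the difference of the responses. The shares of all probe sets that pass the 2-fold rule are not given here, so its counts have no base beside them. The median of the replication-dependent probe sets in WT was -0.70 at a mean of at least 5 and -0.69 to -0.33 when 1 array was left out. That of the replacement histones was -0.67 to -0.53 when 1 array was left out, and their median difference of the responses was 0.24 with array weights and 0.26 to 0.42 when 1 array was left out. The cause was not tested. Signs changed in the groups labelled HDAC2-/- with array weights for H1f5 (-0.17), H4c12 (0.024), H2ac12 (0.022) and H2bc22 (0.12), and with the covariate for H2ax (-0.031). When 1 array was left out, H2ax ranged from -0.09 to 0.12, H1f5 from -0.11 to 0.34, H4c12 from -0.24 to 0.075, H2ac12 from -0.032 to 0.023 and H2bc22 from -0.087 to 0.093.

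The correlations by replicate number do not settle whether the arrays were paired. With the replicate block, 11 members were called lower in WT and 2 in the groups labelled HDAC2-/-, with H2bc3 gained in WT (limma adjusted p = 0.0371). Under this block 7.56% of all probe sets were called lower in WT and 2.07% in the groups labelled HDAC2-/-. Array centring and quantile normalization gave 9 and 2 members. With quantile normalization 6.93% and 2.2% of all probe sets were called lower. Probe sets near the low end of the scale and sequence shared between histone genes limit what single probe sets show, and 18 of 39 members had a mean under 5.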
